A study of Mus musculus with 12 samples.

Results

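The result described here is the departure of a double knockout from additivity, measured in mouse embryonic fibroblasts on day 6 of their differentiation into adipocytes. For each gene, the departure is the log2 level in the double knockout (DKO) minus those in the Gadd45a and Ing1 single knockouts (Gadd45a-KO, Ing1-KO) plus that in wild type (WT). A departure of 0 means that the double knockout held what the fold changes of both single knockouts predict when multiplied. A positive value means that the double knockout lay above that additive expectation and a negative value that it lay below. All 12 of the 12 libraries entered the contrast, 3 per genotype by their titles, and 16163 of 37991 gene identifiers had enough reads to be tested. The fibroblasts came from male C57BL/6N embryos at E15.5, offspring of crosses between mice deficient in Gadd45a and mice deficient in Ing1, and were grown for 4 passages. Once confluent, all cultures, WT included, were given rosiglitazone (2 µM), dexamethasone (1 µM), the phosphodiesterase inhibitor IBMX (0.5 mM) and insulin (10 µg/ml) during 48 h, and insulin alone afterwards. Whether replicates are separate embryos or cultures is not said in the labels, so a p-value here covers only the spread among libraries, which may be technical.

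Gadd45a encodes a small stress-induced protein that acts in DNA repair and in removal of DNA methylation. Ing1 encodes a chromatin reader that binds methylated histone H3 and brings a SIN3 histone deacetylase complex to promoters. Adipogenesis in fibroblasts runs from early C/EBP factors to Pparg and Cebpa, which switch on lipid storage genes, and only a share of the cells in such a culture becomes fat cells. When both genes act in separate pathways their fold changes are commonly taken to multiply, and a departure is the quantity by which geneticists describe an interaction.

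The targeted genes were read first because they check the labels. Gadd45a stood at 14.5, 17.9 and 15.1 CPM (TMM-normalised counts scaled to library size) in WT and 13.4, 14.99 and 18.4 CPM in Ing1-KO. It stood at 144, 141 and 144 CPM in the libraries with the label Gadd45a-KO and at 140, 142 and 138 CPM in those with the label DKO. The 6 libraries labelled as lacking Gadd45a therefore all lay far above the other 6, against their labels, and a count per gene cannot tell which part of the transcript was read. These libraries are called by their labels below, and no direction is drawn here from the absence of the protein. The departure of Gadd45a itself was -0.02 ± 0.14 (log2, SE), with 142 CPM expected for DKO. Ing1 followed its label, at 44.6, 47.9 and 43.6 CPM in WT, 46.3, 47.3 and 44.4 CPM in Gadd45a-KO, 1.00, 1.07 and 1.60 CPM in Ing1-KO and 0.916, 1.15 and 0.681 CPM in DKO. Its departure of -0.45 ± 0.23 did not pass the test (edgeR adjusted p = 0.418). The other tested members of the Gadd45 and ING families, 6 genes, held departures between -0.02 for Gadd45b and 0.14 for Ing2, and 0 of the 8 had an unadjusted p under 0.05. Gene reads per library ran from 42891627 to 52860419.

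No gene passed the test for a departure from additivity once p-values were adjusted over all genes tested, which does not show that departures were absent. With edgeR's quasi-likelihood test, 0 of 16163 genes (0%) were called at a Benjamini-Hochberg adjusted p under 0.05, and the smallest adjusted p was 0.0692, for Tmem267. The unadjusted p was under 0.05 for 2204 genes (13.6%), of which 1056 (6.53%) lay above the additive expectation and 1148 (7.1%) below. A share of 5% would be 808 genes. The median departure over all genes tested was -0.003, and 7981 genes (49.4%) held a value above 0. This balance depends on the normalisation factors and is not a result of its own. With upper-quartile factors in place of TMM the median was -0.038, and 6683 of 16163 genes held a value above 0. Limma-voom also called 0 genes, with 2221 at an unadjusted p under 0.05. DESeq2's Wald test called 175 genes (1.28% of the 13655 it gave an adjusted p), 77 above and 98 below, and had 2120 at an unadjusted p under 0.05. The count also turned on single libraries: without Ing1-KO replicate 3 edgeR called 191 genes (1.17%), without DKO replicate 3 it called 30 (0.183%), and without WT replicate 3 it called 1, Tmem267. Of the 175 genes called by DESeq2 and the 191 called without Ing1-KO replicate 3, 76 were the same, which is 43.4% and 39.8% of each list. The contrast carries the error of 4 group means: the median SE was 0.132, against 0.0939 for DKO compared with WT, and the median half-width of the 95% interval was 0.291. For genes of the adipocyte list the median half-width was 2.22.

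**Figure D1:**
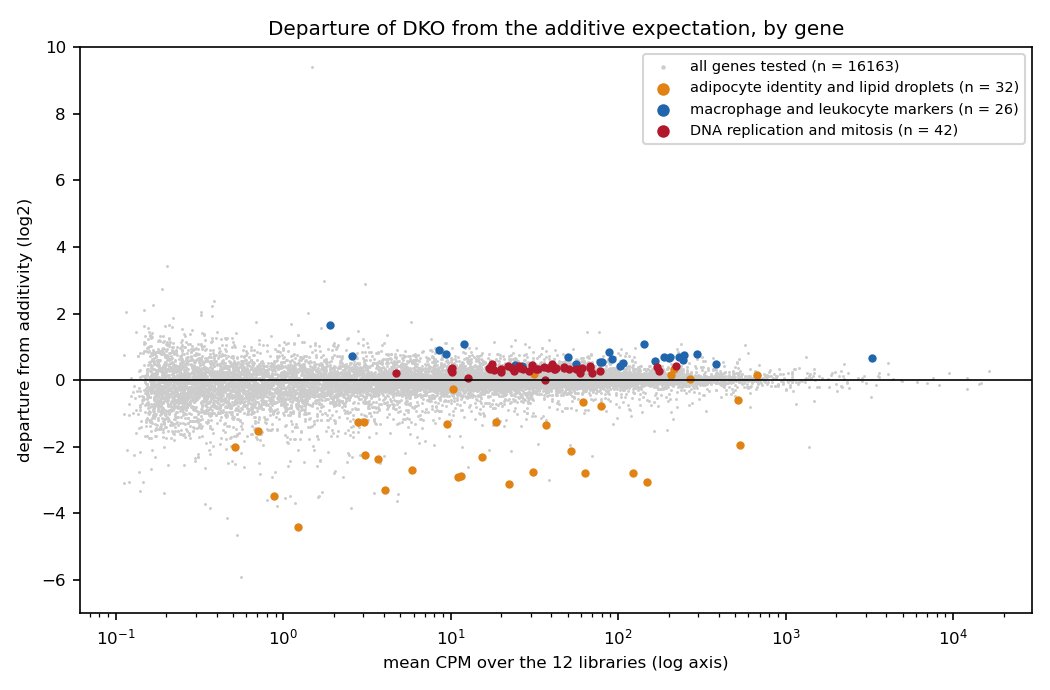
Departure from additivity (log2) of each of the 16163 genes tested against its mean CPM over the 12 libraries on a log axis, with the members of 3 gene lists coloured. Replication and mitosis genes and leukocyte markers lie above 0, most adipocyte genes lie below it, and the single grey point above 9 is Ibsp.

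Most genes of smallest p above the additive expectation were lower in the single knockouts than in WT, while DKO lay close to WT or higher. Picking genes by a positive departure favours that pattern, so it is a description and not a result of its own. None of these genes passed after adjustment, and the 12 of smallest p at a mean of at least 5 CPM are given here as values (edgeR adjusted p from 0.0692 to 0.157). Tmem267, a membrane protein gene, stood at 8.52, 10.5 and 7.33 CPM in WT, 4.54, 3.77 and 3.89 CPM in Gadd45a-KO, 4.13, 3.27 and 4.597 CPM in Ing1-KO and 6.17, 6.58 and 6.15 CPM in DKO. Both single knockouts lay below every other library, and all 3 DKO libraries lay between them and WT, above the 1.85 CPM expected. Its departure was 1.76 ± 0.21. Clca3a1, of the family of calcium-activated chloride channel regulators, stood at 76.9, 66.1 and 78.1 CPM in WT, 59.0, 62.1 and 60.7 CPM in Gadd45a-KO, 56.4, 55.6 and 50.5 CPM in Ing1-KO and 72.3, 76.1 and 66.7 CPM in DKO. The DKO libraries overlapped WT and exceeded every single-knockout library, where 44.5 CPM was expected, a departure of 0.69 ± 0.10. Dpysl2, a microtubule-binding protein of neurite growth, behaved likewise at a smaller size, with 32.9, 31.2 and 31.4 CPM in WT, 27.2, 29.0 and 27.8 CPM in Gadd45a-KO, 27.3, 25.5 and 24.6 CPM in Ing1-KO and 30.03, 32.3 and 31.2 CPM in DKO. Here too DKO overlapped WT and neither single knockout did, and the departure was 0.46 ± 0.07.

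Among the other genes of this group DKO exceeded all other libraries only in Ivns1abp, Cd38 and Rest. Ivns1abp, an actin-binding BTB-kelch protein, stood at 155, 153 and 155 CPM in WT, 144, 148 and 145 CPM in Gadd45a-KO, 133, 137 and 143 CPM in Ing1-KO and 168, 167 and 162 CPM in DKO. No DKO library overlapped any other group, and the departure was 0.35 ± 0.05 with 130 CPM expected. Cd38, an enzyme that consumes NAD and is also a leukocyte surface antigen, stood at 7.49, 7.91 and 8.88 CPM in WT, 7.18, 8.03 and 8.53 CPM in Gadd45a-KO, 7.12, 7.16 and 8.43 CPM in Ing1-KO and 12.8, 11.4 and 11.9 CPM in DKO. The other 3 genotypes overlapped one another and DKO stood alone, a departure of 0.70 ± 0.14. Leukocyte markers were also highest in DKO (described later), and their part in the Cd38 values was not tested. Dysf, encoding the membrane repair protein dysferlin, held a departure of 0.58 ± 0.12 and Cmah, a sialic acid hydroxylase, one of 0.67 ± 0.14. Tfpi2, a secreted inhibitor of serine proteases, was below WT in all 9 mutant libraries, at 5.42 to 6.91 CPM in Ing1-KO and 6.81 to 9.72 CPM in DKO against 12.1 to 13.5 CPM in WT, and its departure of 0.89 ± 0.17 arose because 4.41 CPM was expected. The remaining 4 held smaller departures at small errors: Rc3h2, an mRNA decay factor, 0.36 ± 0.07, Cers6, a ceramide synthase, 0.37 ± 0.07, Adam9, a membrane metalloprotease, 0.23 ± 0.05, and Rest, the repressor of neuronal genes, 0.23 ± 0.04. DESeq2 called all 12. The fit without DKO replicate 3 called Tmem267, Clca3a1, Ivns1abp, Cmah and Dysf among them, and the fit without Ing1-KO replicate 3 called 9 of the 12. All these fits use the counts by which the genes were picked, so their calls are not independent support.

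Among the 12 genes of smallest p below the additive expectation, the mean was higher in Ing1-KO than in WT for each, and in DKO it lay below the WT mean for 9. Picking genes by a negative departure likewise favours high single knockouts and a low DKO. Cdkn2a, which encodes inhibitors of the cell cycle, stood at 42.2, 35.9 and 42.9 CPM in WT, 42.8, 37.9 and 38.8 CPM in Gadd45a-KO, 55.5, 62.0 and 57.7 CPM in Ing1-KO and 37.5, 36.3 and 39.1 CPM in DKO. The Ing1-KO libraries lay above all 9 others and the remaining genotypes overlapped, a departure of -0.62 ± 0.10 from an expectation of 57.6 CPM. Aqp1, a water channel, stood at 51.8, 35.6 and 48.8 CPM in WT, 41.3, 37.0 and 23.3 CPM in Gadd45a-KO, 130, 110 and 76.4 CPM in Ing1-KO and 21.0, 18.1 and 22.5 CPM in DKO. Ing1-KO was the highest group and DKO the lowest, neither overlapping another group, with a departure of -1.94 ± 0.35 that was the largest of the 12. Gnao1, a G protein alpha subunit, differed in that the other genotypes were alike: it stood at 17.0, 15.46 and 19.1 CPM in WT, 18.4, 16.3 and 16.3 CPM in Gadd45a-KO, 18.7, 19.1 and 17.8 CPM in Ing1-KO and 11.6, 11.3 and 11.1 CPM in DKO. DKO stood below the other 9 libraries, which overlapped, a departure of -0.69 ± 0.11.

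Zic1, a zinc finger factor of dorsal neural and skeletal patterning, stood at 17.0, 12.0 and 13.6 CPM in WT, 17.7, 17.8 and 17.98 CPM in Gadd45a-KO, 20.9, 21.6 and 16.7 CPM in Ing1-KO and 10.3, 7.09 and 11.8 CPM in DKO. All 3 DKO libraries lay below the lowest WT library, while the single knockouts lay at or above the highest but for 1 Ing1-KO library, a departure of -1.35 ± 0.25. Its scarcer paralogs Zic4 and Zic5, chosen after their values were seen, held departures of -1.71 ± 0.29 and -1.61 ± 0.26. Fkbp9, a prolyl isomerase of the endoplasmic reticulum, held -0.37 ± 0.06 and was the most abundant of the 12, at 530 to 554 CPM in DKO against 585 to 712 CPM in the other 9 libraries. The others were Armcx6 at -0.72 ± 0.13, Clstn1, a cadherin-like membrane protein, at -0.44 ± 0.08, Crabp2, a retinoic acid binding protein, at -0.66 ± 0.12, Ssc5d, a soluble scavenger receptor, at -0.83 ± 0.15, Tram1l1 at -0.66 ± 0.13, Creb3l1, a factor for collagen secretion, at -0.36 ± 0.07, and Gstp1 at -0.40 ± 0.07. Gstp1, a glutathione transferase, has a near-identical neighbouring copy that can take its reads, which makes its value uncertain. Adjusted p-values of these 12 lay between 0.11 and 0.141 by edgeR. DESeq2 called each of them, and the fit without Ing1-KO replicate 3 called 11 of the 12, all but Creb3l1. Again the genes had been picked from the same counts, so these calls are not independent support.

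**Figure D2:**
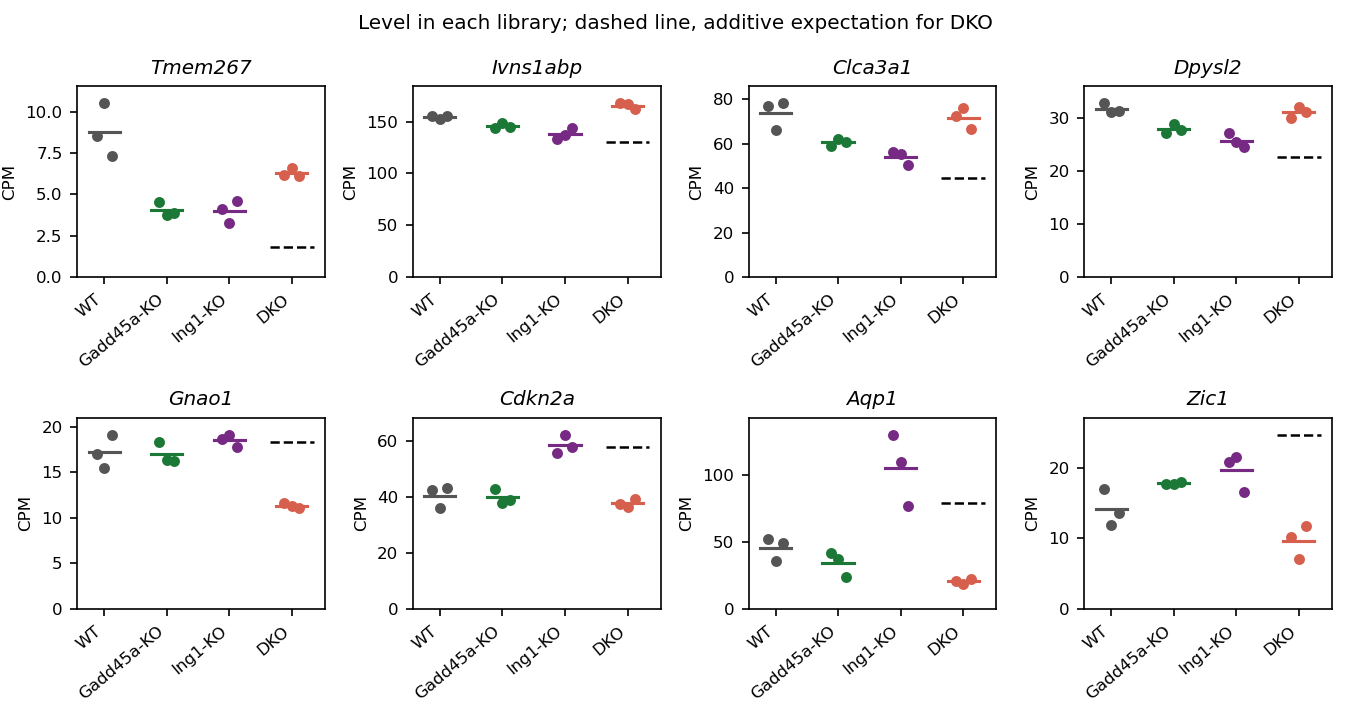
CPM in each of the 12 libraries (points) with the group mean (solid line) for 4 genes above and 4 genes below the additive expectation, which is the dashed line at DKO. Each vertical axis starts at 0, and for all 8 genes the 3 DKO points lie on one side of the dashed line.

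Some genes changed direction between backgrounds. In 184 genes (1.14% of those tested) the step from WT to Ing1-KO went one way and the step from Gadd45a-KO to DKO the other, with no overlap of library values in either step. Of these, 88 were higher in Ing1-KO than in WT and lower in DKO than in Gadd45a-KO, as Aqp1, Fkbp9, Clstn1 and Creb3l1 were. The other 96 were lower on the WT background and higher on the Gadd45a-KO background, as Clca3a1, Dpysl2, Ivns1abp and Adam9 were. These 184 genes were picked by their values and carry no test of their own.

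Gene lists are described by their counts and medians, beside the same values over all genes. Members of a list were measured in the same 12 libraries, so a count of members in 1 direction is not a count of independent results. Over all genes, the count at an unadjusted p under 0.05 also moved when 1 library was left out. It ran from 1577 of 16418 without WT replicate 2 to 3076 of 16383 without Ing1-KO replicate 3. List counts from such fits carry this general movement as well. Genes of adipocyte identity and lipid droplets held the lowest median departure of the 26 lists, -1.97 over 32 tested members against -0.003 over all genes. Of these, 27 lay below the additive expectation and 5 above. At an unadjusted p under 0.05 there were 8 members (25%), 7 below and 1 above, and none was called. The 7 below were 1 with limma-voom, whose median was -1.15, 16 with DESeq2, 12 with the legacy fit and 3 with no filter. Adipoq, encoding the hormone adiponectin, stood at 164, 69.0 and 153 CPM in WT, 53.1, 63.2 and 43.1 CPM in Gadd45a-KO, 146, 44.1 and 9.14 CPM in Ing1-KO and 3.12, 3.11 and 5.73 CPM in DKO. DKO was the lowest group without overlap, whereas the Ing1-KO libraries ran from near the top of WT to below Gadd45a-KO. The departure was -2.78 ± 1.104 from an expectation of 27.5 CPM (edgeR adjusted p = 0.322). Pck1, which makes glycerol phosphate for triglyceride in fat cells, followed the same order at 53.4, 20.2 and 54.9 CPM in WT, 22.6, 22.1 and 14.7 CPM in Gadd45a-KO, 54.0, 16.1 and 4.597 CPM in Ing1-KO and 1.15, 0.817 and 2.00 CPM in DKO. It held the smallest p of the list, with a departure of -3.10 ± 1.14. Gpd1, Cidec, Plin1, Mrap and Trarg1 were the other members below at an unadjusted p under 0.05. They act in glycerol phosphate synthesis, lipid droplet fusion, droplet coating, hormone receptor trafficking and glucose transporter trafficking, and their departures ran from -2.29 for Trarg1 to -3.06 for Gpd1.

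Regulators of the program held smaller departures. Pparg, the nuclear receptor that drives fat cell formation, stood at 20.6, 11.0 and 19.6 CPM in WT, 10.2, 9.002 and 8.07 CPM in Gadd45a-KO, 18.7, 7.79 and 2.27 CPM in Ing1-KO and 1.74, 1.94 and 2.48 CPM in DKO. Its lowest Ing1-KO library lay within the DKO range, and the departure was -1.31 ± 0.83. Cebpa, its partner, held a departure of 0.17 ± 0.46, with 21.6 to 22.3 CPM in DKO and 19.5 CPM expected. The early factors Cebpb and Cebpd held -0.02 ± 0.07 and -0.13 ± 0.16. Fabp4, the fatty acid carrier of fat cells, held -1.94 ± 0.93, and Scd1, a desaturase from the list of fatty acid and triglyceride synthesis, -2.00 ± 0.86. Fabp5, a carrier that fibroblasts and macrophages also make, was the member above at an unadjusted p under 0.05, with 0.35 ± 0.14. Whether these genes differ from one another was not tested.

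For the adipocyte list the Ing1-KO libraries were the most widely spread, and the departure moved with the library left out. The mean log2 CPM of the 32 genes was 5.56, 4.48 and 5.47 in WT, 4.38, 4.34 and 3.97 in Gadd45a-KO, 5.35, 3.91 and 2.29 in Ing1-KO and 1.65, 1.52 and 2.00 in DKO, with 2.90 expected. The departure of these means of log2 values was -1.18. The median of -1.97 is another quantity, taken over departures fitted gene by gene. By the list means Ing1-KO replicate 1 resembled WT and replicate 3 came close to DKO. Without replicate 1 the median departure was -0.69 and 0 members lay below at an unadjusted p under 0.05, without replicate 2 it was -2.21 with 8, and without replicate 3 it was -2.52 with 22, against 1659 of all genes (10.1%) in that last fit. The count of 7 below fell to 3 without WT replicate 2, to 2 without Gadd45a-KO replicate 2 or DKO replicate 1 and to 0 without Gadd45a-KO replicate 1 or DKO replicate 2. In bulk RNA, fewer fat cells and less of these transcripts per fat cell cannot be told apart.

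For these genes the sign of the departure also depended on the scale. On the log2 scale 27 of 32 members lay below the expectation, while on the CPM scale, where differences are added, 27 of 32 lay above it. For 15 of the 32 genes, among them Adipoq and Plin1, the differences of both single knockouts from WT sum to more than the WT level, so the expectation on the CPM scale is below 0 and any measured level lies above it. Their sign on that scale carries no information. Of the other 17 genes, 12 lay below the expectation on the log2 scale and 7 of those 12 lay above it on the CPM scale, among them Fabp4 and Pparg with linear departures of 19.4 and 0.435 CPM. The sign also depended on the scale in fatty acid and triglyceride synthesis, where 6 of 24 members lay above on the log2 scale and 16 on the CPM scale, and in chemokines, cytokines and acute phase genes, with 9 and 15 of 31. In contrast 42 of 42 replication and mitosis genes, 26 of 26 leukocyte markers and 25 of 25 contractile genes lay above the expectation on both scales.

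Genes of DNA replication and mitosis lay above the additive expectation in 42 of 42 cases, where 49.4% of all genes did, with a median departure of 0.35. At an unadjusted p under 0.05 there were 27 (64.3%), all above, against 6.53% of all genes, and none was called by edgeR. DESeq2 called Mcm4, Ccne1 and Rrm2. The departure was made of a lower level in Ing1-KO, with a median log2 difference from WT of -0.32, that was not seen in DKO, at 0.03. Mcm4, a subunit of the replicative helicase, held the smallest p: it stood at 58.9, 62.0 and 55.0 CPM in WT, 54.9, 59.3 and 58.7 CPM in Gadd45a-KO, 45.2, 48.4 and 50.2 CPM in Ing1-KO and 58.9, 59.7 and 61.2 CPM in DKO. The Ing1-KO libraries lay below all 9 others, which overlapped, and the departure was 0.35 ± 0.08 (edgeR adjusted p = 0.175). Replicate 1 of Gadd45a-KO and of Ing1-KO was the lowest of its group for the list mean, and the median departure was 0.25 without the first and 0.26 without the second. The count of 27 was 10 without WT replicate 2, and it became 11 when Ing1-KO replicate 1 was left out, 15 when Gadd45a-KO replicate 1 was, and 14 when either DKO replicate 2 or 3 was. With an adipocyte score of each library as covariate it was 10, and 42 of 42 still lay above.

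Promoters of such genes are known to carry sites for E2F factors and the cell cycle genes homology region (CHR), through which pocket protein complexes repress them. A RefSeq promoter window from 250 bases before to 50 after the start (build GRCm38.p6) was found for 33 of the 42 genes. On either strand, the CHR string TTTGAA was present in 13 of 33 (39.4%) against 14.5% of 11485 tested genes with such a window. An E2F string, TTTCCCGC or TTTGGCGC, was present in 6 (18.2%) against 3.22%, and CCAAT in 24 (72.7%) against 42.4%. None of the strings contains another, and a match is a description of letters, not evidence of binding. Ccne1, Rrm2 and Rrm1, whose p is smaller than that of the examples below, hold neither a CHR nor an E2F match. Whether matches go with the departure was not tested. Of the 6 members whose windows hold a pair of matches, 3 are shown as examples (Mcm6, Ccnb2 and Mki67 are the others), with E2F matches in capitals for Mcm3, a helicase subunit, and CHR matches in capitals for Cdk1, the mitotic kinase, and Top2a, the topoisomerase that untangles chromosomes.
Mcm3 (chr1:20820263-20820562, minus strand): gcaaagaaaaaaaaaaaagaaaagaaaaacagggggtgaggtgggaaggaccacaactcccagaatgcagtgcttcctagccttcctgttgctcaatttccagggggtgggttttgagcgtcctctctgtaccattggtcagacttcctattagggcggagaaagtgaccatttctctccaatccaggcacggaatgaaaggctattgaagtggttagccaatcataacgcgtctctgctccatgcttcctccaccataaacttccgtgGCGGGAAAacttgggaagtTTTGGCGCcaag
Cdk1 (chr10:69352863-69353162, minus strand): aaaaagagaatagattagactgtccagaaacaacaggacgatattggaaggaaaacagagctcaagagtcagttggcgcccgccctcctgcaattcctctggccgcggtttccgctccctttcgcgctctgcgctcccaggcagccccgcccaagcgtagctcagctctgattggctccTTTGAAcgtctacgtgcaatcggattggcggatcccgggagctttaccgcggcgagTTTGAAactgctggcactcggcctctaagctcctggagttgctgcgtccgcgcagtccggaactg
Top2a (chr11:99024140-99024439, minus strand): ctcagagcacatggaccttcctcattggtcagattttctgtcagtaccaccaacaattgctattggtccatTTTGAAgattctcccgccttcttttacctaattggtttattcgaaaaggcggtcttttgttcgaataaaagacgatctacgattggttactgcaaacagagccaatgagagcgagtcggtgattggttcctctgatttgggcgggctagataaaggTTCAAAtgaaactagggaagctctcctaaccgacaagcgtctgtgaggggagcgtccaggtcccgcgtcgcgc
Mcm3, with a pair of E2F matches, stood at 51.6, 54.5 and 50.01 CPM in WT, 46.4, 57.2 and 50.6 CPM in Gadd45a-KO, 39.9, 44.8 and 47.7 CPM in Ing1-KO and 52.2, 57.5 and 56.8 CPM in DKO, a departure of 0.35 ± 0.12. Cdk1 stood at 48.7, 53.1 and 48.3 CPM in WT, 39.2, 52.7 and 49.8 CPM in Gadd45a-KO, 38.9, 41.4 and 43.9 CPM in Ing1-KO and 47.6, 52.5 and 53.5 CPM in DKO, a departure of 0.39 ± 0.14. Top2a stood at 173, 194 and 163 CPM in WT, 153, 204 and 190 CPM in Gadd45a-KO, 124, 147 and 145 CPM in Ing1-KO and 181, 190 and 196 CPM in DKO, a departure of 0.40 ± 0.15. In all 3 genes the Ing1-KO libraries lay below every WT and DKO library, and Gadd45a-KO replicate 1 was the lowest of its group.

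Inhibitors of the cell cycle and targets of p53 were nearer the values of all genes. Of 26 tested members 18 lay below the expectation, with a median of -0.09, and 5 had an unadjusted p under 0.05 (19.2%, against 13.6% of all genes), 4 below and 1 above. That count was 9 without Gadd45a-KO replicate 2 and 8 without Ing1-KO replicate 1. Beside Cdkn2a these were its neighbour Cdkn2b, another CDK inhibitor, at -0.40 ± 0.12, the p53 targets Phlda3 at -0.37 ± 0.11 and Perp at -1.31 ± 0.44, and the pocket protein gene Rbl1 at 0.28 ± 0.12. Cdkn1a, the principal p53-induced CDK inhibitor, held -0.20 ± 0.09 (adjusted p = 0.378). Cdkn2b stood at 49.9, 45.8 and 52.7 CPM in WT, 54.4, 48.7 and 45.6 CPM in Gadd45a-KO, 59.9, 60.7 and 52.0 CPM in Ing1-KO and 46.6, 43.2 and 41.7 CPM in DKO. Its Ing1-KO libraries lay above every DKO library and overlapped WT and Gadd45a-KO in 1 library.

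**Figure D3:**
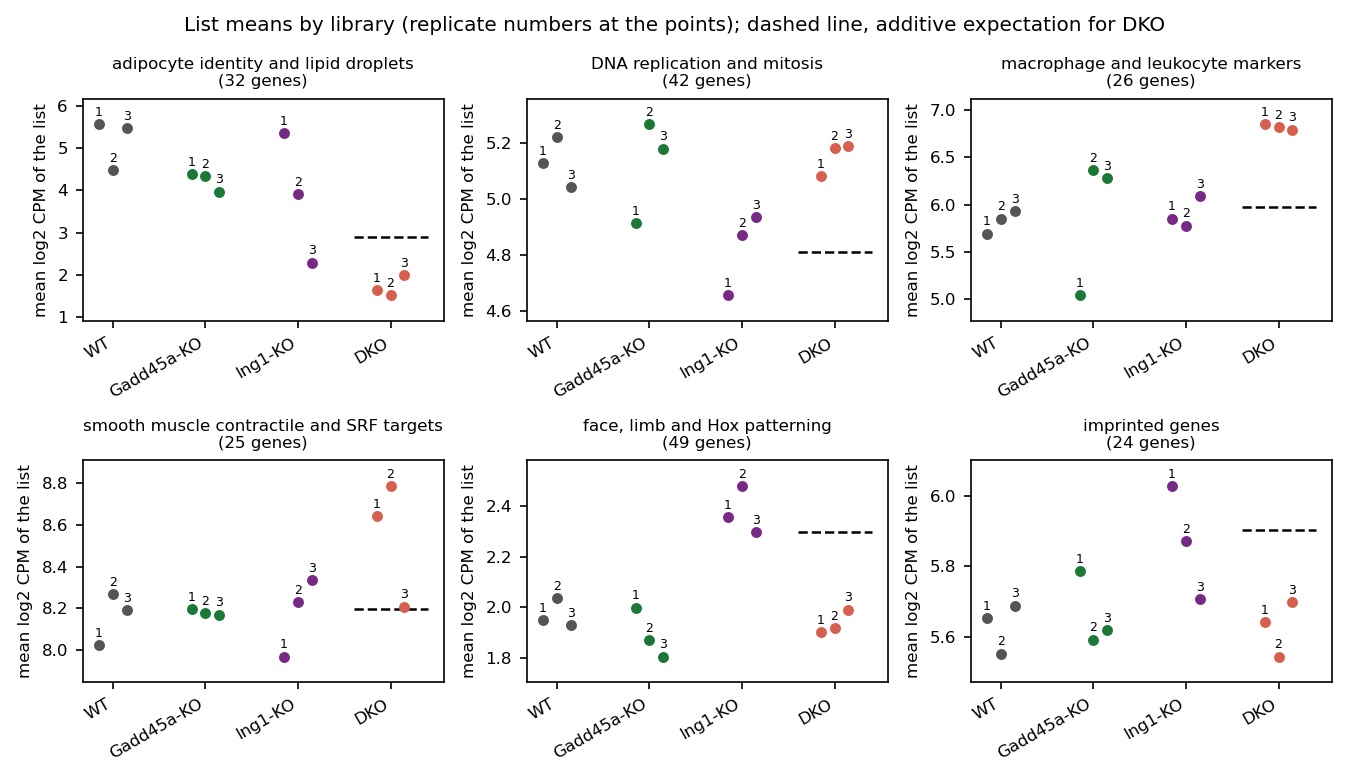
Mean log2 CPM of the tested members of 6 gene lists in each library, with the replicate number at each point and the additive expectation for DKO as a dashed line, on vertical axes that differ in range and do not start at 0. All 3 DKO libraries lie below the line for adipocyte, patterning and imprinted genes and above it for replication, leukocyte and contractile genes.

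Markers of macrophages and other leukocytes, cells that can persist in embryonic fibroblast cultures, lay above the expectation in 26 of 26 cases. Of all genes 49.4% did, and the median of the list was 0.69. At an unadjusted p under 0.05 there were 2 (7.69%, against 13.6% of all genes): Cd163, a macrophage scavenger receptor, at 1.65 ± 0.63, and Ptprc, the pan-leukocyte antigen CD45, at 0.64 ± 0.28. Ptprc stood at 66.1, 81.4 and 74.9 CPM in WT, 51.7, 98.5 and 98.9 CPM in Gadd45a-KO, 73.1, 74.5 and 83.3 CPM in Ing1-KO and 138, 133 and 133 CPM in DKO. DKO lay above all other libraries, and Gadd45a-KO replicate 1 lay below all of them. The summed level of the list was 4760 to 5484 CPM in WT, 2578 to 7468 CPM in Gadd45a-KO, 4767 to 5572 CPM in Ing1-KO and 9082 to 9662 CPM in DKO. Other fits gave more members at an unadjusted p under 0.05, 9 with limma-voom, 7 with DESeq2, 7 with the replicate number as a block and 4 with the legacy fit, and fits with no filter, with a mean of at least 5 CPM or with an adipocyte score as covariate gave 1. Cd3e, which marks T cells, was at 0 in every library. Without Gadd45a-KO replicate 1 the median departure was 0.35 and 12 members had an unadjusted p under 0.05. That count was 13 without Gadd45a-KO replicate 2, 6 without Ing1-KO replicate 3, 5 without Gadd45a-KO replicate 3, 0 without WT replicate 3 or Ing1-KO replicate 2 and 1 without WT replicate 2, Ing1-KO replicate 1 or any one DKO library. The replication and contractile genes lay above the expectation in the same DKO libraries, and the part of leukocyte RNA in their values was not tested.

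Contractile genes and targets of the factor SRF lay above the expectation in 25 of 25 cases, against 49.4% of all genes, with a median of 0.24. The 4 at an unadjusted p under 0.05 (16%) were near the 13.6% of all genes. Ankrd1, a stretch-responsive nuclear protein, stood at 48.9, 76.1 and 58.8 CPM in WT, 61.5, 58.5 and 57.2 CPM in Gadd45a-KO, 34.6, 51.0 and 69.3 CPM in Ing1-KO and 146, 184 and 75.4 CPM in DKO. The 3rd DKO library fell within the WT range and the other 2 lay above all 9 other libraries, a departure of 1.44 ± 0.45 (edgeR adjusted p = 0.266). Ccn2, a matricellular growth factor, split in the same manner, with 891, 1007 and 543 CPM in DKO, 472 to 619 CPM in WT and a departure of 0.82 ± 0.31. Ccn1 held 0.43 ± 0.15 and Des, encoding the muscle filament desmin, 0.54 ± 0.23. The median departure of the list was 0.36 without DKO replicate 3, with 17 members at an unadjusted p under 0.05, and 0.13 without DKO replicate 2, with 2. There were 7 without Ing1-KO replicate 3 and 2 without WT replicate 2 or DKO replicate 1.

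Patterning factors of face and limb and Hox genes lay below the expectation in 39 of 49 cases, with a median of -0.23. Of all genes 49.4% lay above it. At an unadjusted p under 0.05 there were 10 (20.4%), 9 below against 7.1% of all genes. Pax9, needed for teeth, palate and vertebrae, stood at 1.24, 0.759 and 0.856 CPM in WT, 1.70, 1.34 and 1.25 CPM in Gadd45a-KO, 3.65, 3.04 and 2.83 CPM in Ing1-KO and 1.88, 1.72 and 1.40 CPM in DKO. Every Ing1-KO library lay above all others and every WT library below all others, a departure of -1.52 ± 0.28 (edgeR adjusted p = 0.141; called by DESeq2). Prrx2, Foxd1, Hoxd3, Osr1, Hoxa5 and Osr2, all transcription factors of embryonic tissue identity, were among the other members below, between -0.30 for Osr1 and -1.40 for Foxd1. Alx4 was the member above, at 0.95. In the fit limited to a mean of at least 5 CPM, which 20 members passed, the list median was -0.06. The 9 below became 4 or 6 when Gadd45a-KO replicate 1 or 2 was left out, and 5 when WT replicate 2 was.

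Imprinted genes, expressed from the copy of 1 parent, lay below the expectation in 23 of 24 cases, with a median of -0.16. Of all genes 49.4% lay above it. At an unadjusted p under 0.05 there were 4 imprinted genes (16.7%, near the 13.6% of all genes), all below. Mest, a mesodermal gene expressed from the paternal copy, stood at 48.8, 35.5 and 48.5 CPM in WT, 63.7, 48.8 and 55.4 CPM in Gadd45a-KO, 197, 214 and 130 CPM in Ing1-KO and 104, 83.6 and 85.6 CPM in DKO. The groups ran from WT through Gadd45a-KO and DKO to Ing1-KO, with WT and Gadd45a-KO touching, and 228 CPM was expected for DKO, a departure of -1.32 ± 0.27. Meg3, a maternally expressed noncoding RNA, stood at 1058, 1001 and 1042 CPM in WT, 1141, 1063 and 1120 CPM in Gadd45a-KO, 1218, 1196 and 1250 CPM in Ing1-KO and 1063, 1007 and 1099 CPM in DKO. Ing1-KO lay above the other 9 libraries and the rest overlapped, a departure of -0.31 ± 0.06 (edgeR adjusted p = 0.171). DESeq2 called both. Plagl1, a zinc finger regulator of the imprinted network, held -0.74 ± 0.22 and Slc22a18 -0.59, while Igf2 and H19, at -0.71 ± 0.38 and -0.51 ± 0.28, had wider errors. Without Ing1-KO replicate 3 the count was 9 and without DKO replicate 3 it was 7.

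Preadipocyte and fibroblast markers lay below in 19 of 23 cases, where 49.4% of all genes lay above, with a median of -0.30. At an unadjusted p under 0.05 there were 5 (21.7%), all below. Over all genes 13.6% had such a p, and 7.1% had it and lay below. Ebf2, a factor of committed preadipocytes, stood at 5.75, 4.96 and 7.57 CPM in WT, 7.70, 5.66 and 5.24 CPM in Gadd45a-KO, 16.1, 8.14 and 4.94 CPM in Ing1-KO and 3.36, 2.96 and 2.85 CPM in DKO. DKO lay below the other 9 libraries, while Ing1-KO ran from the highest value of all to the lowest outside DKO, a departure of -1.70 ± 0.54. Cd248, a stromal cell surface protein, held -0.26 ± 0.08, Klf4 -0.33 ± 0.10, Dpt, encoding the matrix protein dermatopontin, -0.74 ± 0.29, and Twist1 -0.36. Dlk1, the preadipocyte factor that holds back differentiation, held -0.16 ± 0.38. The count of 5 was 13 without Ing1-KO replicate 3, 8 without Gadd45a-KO replicate 2 and 3 without Gadd45a-KO replicate 1, DKO replicate 1 or DKO replicate 2. The count over all genes was 3076 of 16383 without Ing1-KO replicate 3 and 2474 of 16405 without Gadd45a-KO replicate 2.

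Signalling and matrix lists split in both directions. Their shares stand beside the 13.6% of all genes that had an unadjusted p under 0.05. Of 42 Wnt, TGF-beta and BMP genes (median 0.06), 9 had an unadjusted p under 0.05 (21.4%), 4 above and 5 below, against 14 when Ing1-KO replicate 3 was left out and 5 when replicate 2 of that group was. Tgfbr1, a TGF-beta receptor, stood at 106, 113 and 111 CPM in WT, 113, 113 and 121 CPM in Gadd45a-KO, 95.6, 98.0 and 114 CPM in Ing1-KO and 138, 140 and 133 CPM in DKO, above all other libraries, a departure of 0.35 ± 0.09. The ligand Tgfb1 held 0.43 ± 0.16 and the inhibitory Smad7 0.31, whereas the ligand Bmp4 held -1.10 ± 0.31, with 16.8 to 24.5 CPM in Ing1-KO, 9.84 to 16.3 CPM in DKO and 4.92 to 7.74 CPM in WT. The BMP antagonist Grem1 held -0.31. Among 21 matrix proteases and inhibitors (median -0.02) 6 had an unadjusted p under 0.05 (28.6%), with the protease inhibitor Serpine2 at -0.68 ± 0.20, Mmp2 at -0.50 ± 0.14 and Mmp23 at -0.28 ± 0.07. Among 26 elastic fibre and collagen genes (median -0.08) 7 did (26.9%), 3 above, among them Ltbp2, a TGF-beta binding matrix protein, at 0.34 ± 0.12, and 4 below, among them Efemp1, a fibulin, at -0.88 ± 0.31. That count was 2 without WT replicate 2 and between 3 and 4 without WT replicate 3, Gadd45a-KO replicate 3, Ing1-KO replicate 1, DKO replicate 1 or DKO replicate 2. Eln, encoding elastin, was far above WT in Ing1-KO (782 to 1179 CPM against 176 to 219 CPM) and in DKO (557 to 1241 CPM), and the 95% interval of its departure of -0.81 ± 0.57 included 0. The cartilage proteoglycan gene Acan held -1.01 ± 0.69, with an interval that also included 0. In the cartilage and bone list (median -0.10 over 21 genes) 3 had an unadjusted p under 0.05 (14.3%): Chad, a cartilage matrix protein, at -1.097 ± 0.35, Sox9, the chondrocyte regulator, at -0.62 ± 0.23, and Ibsp. That count was 6 without Ing1-KO replicate 3 and 5 without DKO replicate 3, and the median turned to 0.06 without Ing1-KO replicate 1. Chad was scarce, at a mean of 0.301 CPM over the 12 libraries. Ibsp, a bone sialoprotein, held 9.40 because of 2 libraries, 5.57 CPM in WT replicate 2 and 11.2 CPM in DKO replicate 1, with at most 0.281 CPM in the other 10.

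Metabolic, stress and inflammatory lists stayed near the background or spread widely. That background was 13.6% of all genes at an unadjusted p under 0.05. Of 24 genes of cholesterol synthesis and its SREBP2 control, with a median of 0.01, 3 lay above at an unadjusted p under 0.05 (12.5%), among them Stard4, a sterol carrier, at 0.31. Fatty acid oxidation (median -0.19) had 0 of 26 members at an unadjusted p under 0.05, and its smallest p belonged to Acaa1b, a peroxisomal thiolase, at -2.50 ± 1.197. Without Ing1-KO replicate 1 its median turned to 0.09, and without replicate 3 it was -0.39 with 4 members below. Fatty acid and triglyceride synthesis (median -0.09) had 2 of 24 (8.33%), Scd1 below and Elovl5, an elongase, above at 0.14 ± 0.06. Oxidative phosphorylation (median -0.04) had 1 of 33 (3.03%), Cox8b, a cytochrome oxidase subunit of brown fat and muscle, at -4.15 ± 1.73, which was 0 in 2 of the DKO libraries, so that the fitted value depends on the prior count. Without Ing1-KO replicate 1 the medians of the synthesis and oxidative phosphorylation lists turned to 0.11 and 0.05.

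Chemokines, cytokines and acute phase genes had a median of -0.26, with 5 of 31 below at an unadjusted p under 0.05 (16.1%). Over all genes 13.6% had such a p, and 7.1% had it and lay below. C4b, a complement component, held -1.89 ± 0.72, and a near-identical copy can share its reads. Leaving out Ing1-KO replicate 3 gave 12 and leaving out replicate 2 gave 1. Interferon-stimulated genes (median -0.04) and genes of the integrated stress and unfolded protein response (median -0.01) had 0 of 23 and 0 of 22. Mx1 and Slc7a11, an antiviral GTPase and a cystine carrier, held their smallest p, at 1.02 ± 0.48 and 0.33 ± 0.15. Mx1 was scarce, at a mean of 0.584 CPM over the 12 libraries. Glucocorticoid receptor targets (median -0.03) had 1 of 16 (6.25%), the kinase gene Sgk1, at 0.22 ± 0.09. In the IGF axis (median 0.11) 4 of 19 did (21.1%), with the insulin receptor substrate Irs1 at -0.55 ± 0.15 and the binding proteins Igfbp2 and Igfbp4 at -0.45 ± 0.14 and -0.81 ± 0.31. Antioxidant genes (median 0.06) had 4 of 23 (17.4%), with the glutathione transferase Gsta4 at -0.65 ± 0.21. Subunits of the SIN3 complex and DNA methylation enzymes, partners of the targeted genes, had a median of -0.003 over 25 genes with a median SE of 0.077, and 2 lay at an unadjusted p under 0.05 (8%): the repair nuclease gene Ercc5 at -0.24 ± 0.08 and the hemimethylated DNA reader Uhrf1 at 0.41. Uhrf1 is also a member of the replication and mitosis list and is counted in both. Markers of neurons, skeletal muscle and endothelium (median 0.25) had 5 of 19 (26.3%), 4 above and 1 below, led by the endothelial Pecam1 at 1.43 ± 0.51, which leukocytes also make. Pecam1 was scarce as well, at a mean of 0.52 CPM. Of 16 epithelial and erythroid markers 3 could be tested, and Krt19 among them held 0.46 ± 0.21. In these smaller lists the counts moved by several genes when a library was left out, up to 9 for the IGF axis and 7 for fatty acid and triglyceride synthesis without Ing1-KO replicate 3 and 7 for antioxidant genes without Ing1-KO replicate 1 or 3.

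**Figure D4:**
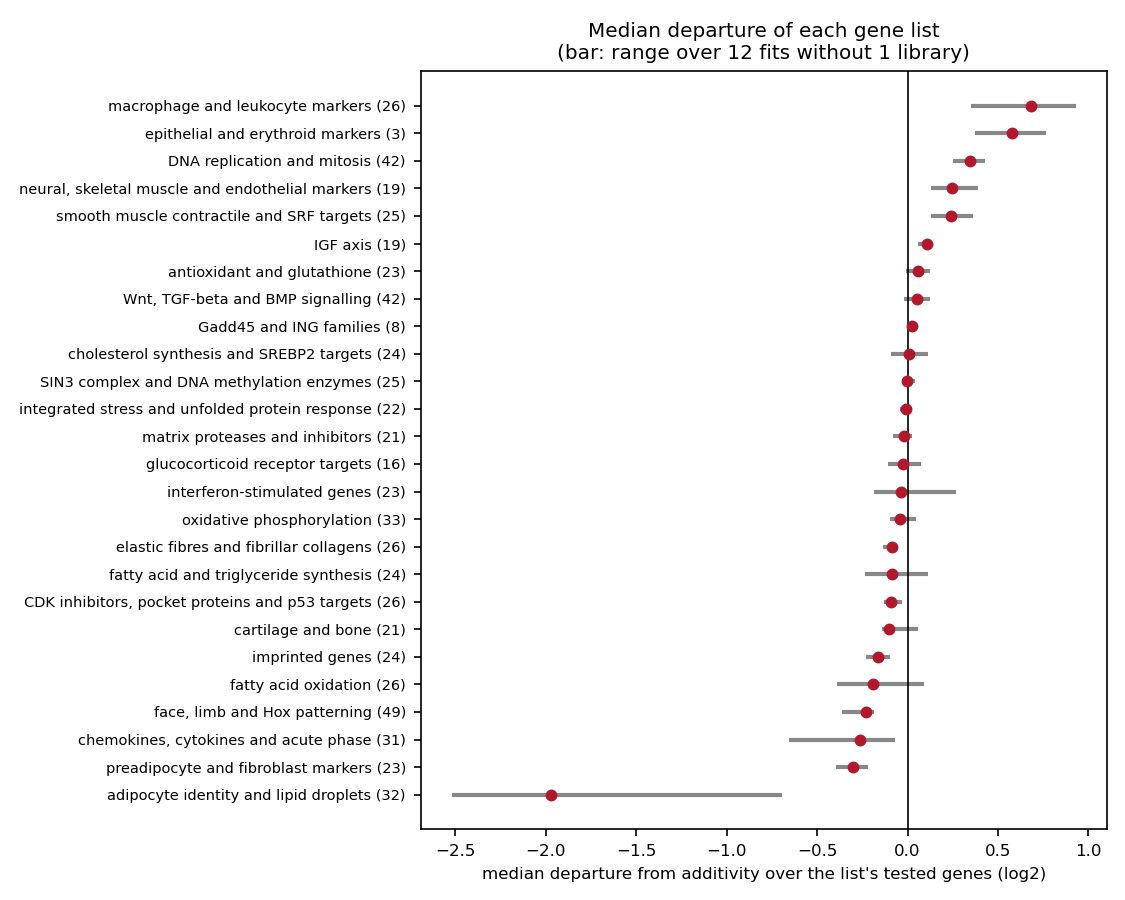
Median departure (log2) over the tested members of each of the 26 gene lists (red points, number of members in parentheses), with the range over 12 fits that each leave out 1 library (grey bars). The adipocyte list has the lowest median, -1.97, and the widest bar, from -2.52 to -0.69, while the bars of leukocyte, replication and contractile genes stay above 0.

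Position along the chromosome was examined after the values had been seen. Of the 50 tested genes that come just before Gadd45a in chromosome order, 19 (38%) had an unadjusted p under 0.05, 14 below the expectation and 5 above, against 13.6% of all genes. Of the 50 just after it 4 (8%) did. The median departure was 0.034 in the 50 before and 0.025 in the 50 after, so the window as a whole was not shifted down. In 33 bins of up to 50 genes on the chromosomes of both targets the 38% before Gadd45a was the highest share. The next, 36%, was also on the chromosome of Gadd45a, 151 to 200 genes before it, with 9 below and 9 above. Bins on other chromosomes were not examined. Around Ing1 the shares were 8.89% before and 22% after. The genes before Gadd45a include Aqp1 and Fkbp9. They also include Pde1c, a phosphodiesterase, at 2.03, 1.95 and 1.95 CPM in WT, 1.53, 2.05 and 1.06 CPM in Gadd45a-KO, 2.29, 1.84 and 2.23 CPM in Ing1-KO and 0.376, 0.353 and 0.536 CPM in DKO. Adcyap1r1, a neuropeptide receptor, stood at 9.63, 7.46 and 8.74 CPM in WT, 6.87, 6.81 and 4.37 CPM in Gadd45a-KO, 7.30, 6.11 and 6.54 CPM in Ing1-KO and 1.74, 2.32 and 1.77 CPM in DKO. Ggct, an enzyme of glutathione breakdown, stood at 4.22, 3.95 and 4.12 CPM in WT, 3.92, 4.40 and 2.91 CPM in Gadd45a-KO, 4.67, 4.27 and 4.19 CPM in Ing1-KO and 1.55, 1.77 and 2.02 CPM in DKO. In all 3 the DKO libraries lay below the other 9, with departures of -1.96 ± 0.33, -1.26 ± 0.26 and -1.17 ± 0.21 (edgeR adjusted p = 0.138, 0.157 and 0.141). Nod1, an innate immune sensor, and Lancl2 held -0.60 ± 0.17 and -0.42 ± 0.11 with DKO again lowest, while Creb5 and Jazf1 lay above the expectation at 0.79 and 0.34. The 19 of 50 ranged from 14 to 21 over the fits that leave out 1 library, and windows of 25 and 100 genes before Gadd45a held 6 (24%) and 24 (24%).

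**Figure D5:**
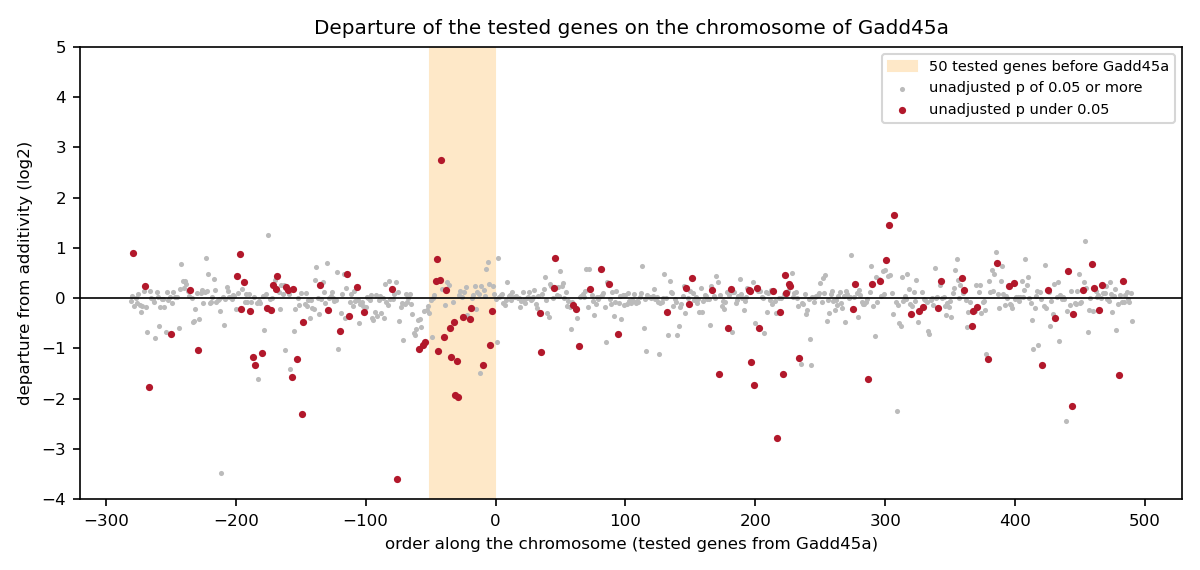
Departure (log2) of the tested genes on the chromosome of Gadd45a by their order from Gadd45a at 0, with genes at an unadjusted p under 0.05 in red. The shaded band covers the 50 genes before Gadd45a, of which 19 are red and 14 of those below 0.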

How the data were processed

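Poly(A) RNA was sequenced in 12 libraries, 3 per genotype, grouped by the genotype in their titles. The authors deposited 1 table of raw counts for each library, by Ensembl identifier. Builds NCBIM37 and mm9 and the tools HTSeq (0.5.4), Bowtie2 (2.1.0), TopHat2 (2.0.9), DESeq and FastQC are listed in the submitters' processing notes. How reads were assigned and with which strand setting is not given in the sources used here, so a gene and an overlapping antisense gene may share reads. Lines that name no gene held 24.2% to 24.8% of each library and were left out. Symbols came from a GENCODE annotation of a later build, matched 32919 identifiers and also gave gene order. Of 707 listed gene names 694 matched.

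The contrast was computed here from the counts with edgeR 4.0.16 in R 4.3.3: TMM factors (0.986 to 1.01), filterByExpr by genotype, robust quasi-likelihood fit of 4 genotype means on all 12 libraries, and Benjamini-Hochberg adjustment over 16163 genes. The common biological coefficient of variation was 0.105. The SE is the absolute log2 departure divided by the square root of its F statistic. The additive expectation is the product of the mean CPM of both single knockouts divided by that of WT. Values after ± are SE. Simulated counts with known changes were used to test the computation. Every pair of replicates differed by more than counting noise.

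Genes named are the targets, the 12 of smallest p each way at a mean of at least 5 CPM (without predicted genes, RIKEN clones and pseudogenes) since none was called, the member of smallest p of each of 26 lists, 14 genes of adipogenesis and the cell cycle, and others singled out after their values were seen. Some genes that this rule names are not reported here. The contrast, the lists and the rules were chosen with earlier results of these data known. Alternatives were DESeq2 1.42.0, limma-voom 3.58.1, the legacy fit, upper-quartile and RLE factors, no filter or one at 5 CPM, the replicate number as a block, an adipocyte score as covariate, leaving out each library and the linear CPM scale. The windows along the chromosome and the count of list members on the CPM scale were added after seeing the data.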

Additional observations from a re-analysis of the deposited data

Results flagged for a closer look

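For 13 of the named genes the step from WT to Ing1-KO and the step from the libraries labelled Gadd45a-KO to those labelled DKO went in opposite directions, with no overlap of library values in either step. The test of that difference is the departure itself, and with edgeR it passed for none of them after adjustment (adjusted p from 0.0692 to 0.157). In 9 the level was lower on the WT background and higher on the Gadd45a-KO background: the log2 departure was 1.76 for Tmem267, 0.69 for Clca3a1, 0.58 for Dysf, 0.46 for Dpysl2, 0.37 for Cers6, 0.36 for Rc3h2, 0.35 for Ivns1abp, 0.23 for Adam9 and 0.23 for Rest. In 4 it was the reverse: -1.94 for Aqp1, -0.44 for Clstn1, -0.37 for Fkbp9 and -0.36 for Creb3l1. All 13 are among the genes named for the smallest p of the departure. The departure is the difference between these steps, so that choice favours such reversals. Over all genes tested 184 showed such a reversal, 88 with the direction of Aqp1 and 96 with that of Tmem267.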

How the results depend on the processing

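The count of 0 genes called (0 above, 0 below) was 1 (1 above) with no filter on low counts, 4 (3 above, 1 below) with an adipocyte score as covariate and 175 (77 above, 98 below) with DESeq2. It stayed at 0 with RLE or upper-quartile factors, a mean of at least 5 CPM, the legacy fit and limma-voom. Leaving out 1 library gave 0 to 191 called, 0 to 48 above and 0 to 143 below. The score is computed from adipocyte genes and is circular for them: with it the log2 departure was 0.197 for Pparg, 0.323 for Dlk1, 0.019 for Cebpd and 0.004 for Cebpb, all of the opposite sign. On the linear CPM scale the sign reversed for Fabp4 (19.4 CPM) and Pparg (0.435 CPM). It is positive by construction for Scd1 (201 CPM), Adipoq (12.8 CPM) and Plin1 (6.78 CPM), whose expectation is below 0. Leaving out 1 library was run for the genes that the naming rule gives, not for those singled out later, and turned the sign of the log2 departure for Cebpa (-0.098 to 0.699), Cebpb (-0.053 to 0.009), Dlk1 (-0.397 to 0.189) and Gadd45a (-0.114 to 0.12). Upper-quartile factors moved the median departure of all genes to -0.038, with 694 above and 1506 below at an unadjusted p under 0.05. With the replicate number as a block 0 genes were called and 2154 had an unadjusted p under 0.05. The labels do not say whether the replicate numbers pair the libraries. Of 18 same-numbered pairs 2 had deviations correlated above 0.1 (range -0.189 to 0.251), and 5 of 12 libraries correlated best with their own number. These correlations cannot settle pairing, because deviations from means of 3 libraries also carry other differences between libraries. Other causes of these shifts were not tested. Limits are the 3 libraries per genotype, the spread among Ing1-KO libraries for adipocyte genes, and the Gadd45a reads that go against the labels.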
